A study of Sus scrofa with 5 samples.

Results

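The serpin genes of the pig were examined in ovarian follicles of female pigs (Sus scrofa) of the Indian Ghoongroo breed. Members were the protein-coding rows of the expression files whose gene name begins with SERPIN, which gave 26 of 30822 listed genes in 9 clades, the lettered branches of the family. RNA sequencing of 3 large follicle libraries and 2 small follicle libraries was available, and both groups share breed, sex and tissue, with no treatment named. The replicates are labelled biological, but the labels do not say whether each is a different animal, how many follicles were pooled, what diameters they had or how old the animals were. The p-values therefore measure only the spread between these samples.

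Serpins are folded around a loop that a target protease cuts, and an inhibitory serpin then holds the protease in a covalent complex and is itself used up. Several members inhibit no protease and serve as hormone carriers, collagen chaperones or secreted signalling proteins. In the ovary the family is known for the inhibitors of plasminogen activators, which bear on the loosening of the follicle wall before ovulation, and SERPINE2 is a known product of granulosa cells.

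Levels are given as FPKM, fragments scaled to gene length and library size, as the authors deposited them. Library totals, worked back from the smallest steps of these values, ran from 9523739 to 11507527 fragments. The tissue was checked against marker genes. The summed FPKM of 12 granulosa genes was 6025 to 14379 in large and 4499 to 6212 in small follicles, which overlapped, and that of 9 theca genes was 2122 to 4480 against 1009 to 1292 FPKM. Most of a list of 8 liver genes was nearly silent. ALB was at most 0.254 FPKM and TTR was at 0 in all 5 libraries, while APOA1 had 449 to 613 FPKM. In whole follicles, fewer cells of a type and less RNA per cell cannot be told apart.

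Of the 26 members, 12 reached an FPKM of 1 in at least 2 libraries and were tested, 8 were detected below that level, and 6 were at 0 in every library. SERPINF1 was higher and SERPINA6 lower in large follicles, and these 2 members were called. The call is a Benjamini-Hochberg adjusted p under 0.05 over all 13087 genes tested, from limma on log2(FPKM + 1). Among all genes tested 0.978% were called, 0.535% higher and 0.443% lower. The fold changes below are large minus small on that log2 scale, where the added 1 shrinks the change of genes at low level, with the standard error (SE) after the sign ±. FPKM means carry SDs, with n = 3 for large and n = 2 for small follicles.

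SERPINE2, SERPINH1 and SERPING1 stood far above the rest in level, each with a different role. SERPINE2, protease nexin-1, a secreted inhibitor of thrombin, urokinase and tissue plasminogen activator, had a mean of 2058 FPKM over the 5 libraries. SERPINH1, the collagen chaperone HSP47 of the endoplasmic reticulum, had 589 FPKM, and SERPING1, the C1 inhibitor that blocks complement C1r and C1s and plasma kallikrein, had 421 FPKM. The ranges over libraries of these 3 did not meet one another or that of the next member, and the order held in all 5 libraries. SERPINE2 alone took 51.2% to 75.7% of the family's summed FPKM, and 0.209% to 0.700% of all fragments of a library. It stood between place 22 and place 106 among all listed genes, by library.

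Below these lay a middle group that held SERPINB9, SERPINF1 and SERPINB1, with means of 29.0, 23.9 and 21.1 FPKM. Their ranges overlapped, so the 5 libraries do not order them. Their lowest value, the 5.97 FPKM of SERPINF1 in small follicle replicate 2, was still above the highest value of SERPINA5, 4.71 FPKM. The last group, SERPINA5, SERPINF2, SERPINB11, SERPINA6 and SERPINI1, had means of 2.99, 1.75, 1.66, 1.61 and 0.931 FPKM, again with overlapping ranges between neighbours. The filter line fell between SERPINI1, which reached 1.05 and 1.42 FPKM in 2 libraries, and SERPINB10, which reached 1.17 FPKM in 1.

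**Figure D1:**
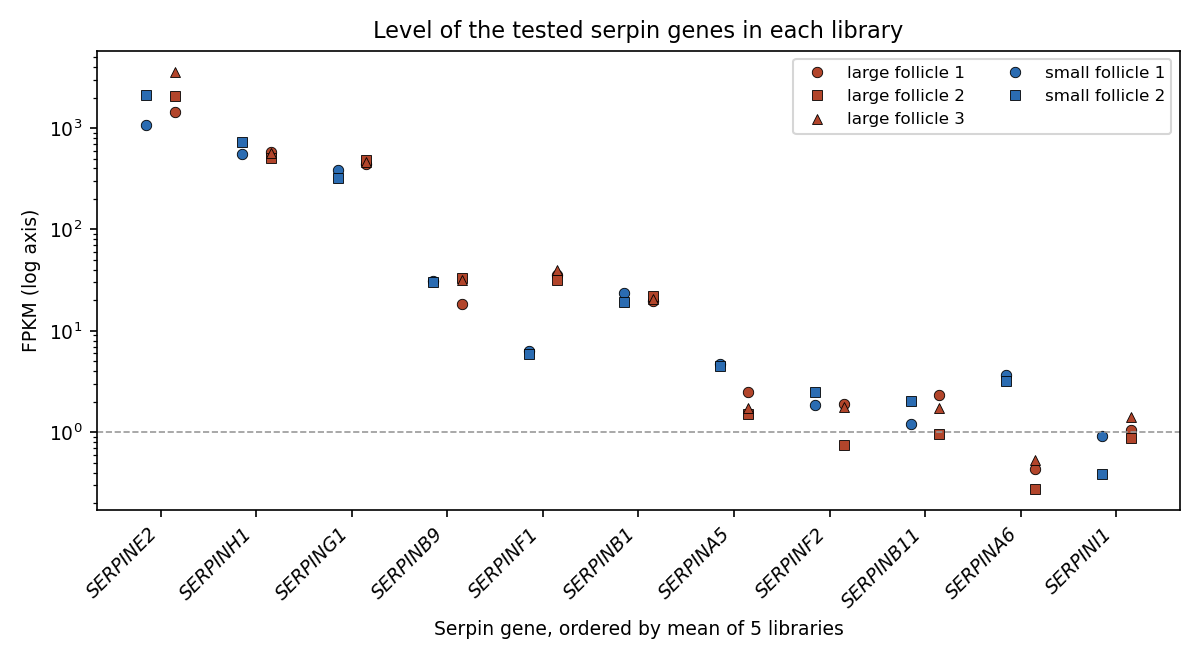
FPKM of 11 of the 12 tested serpin genes in each library on a log axis, genes ordered by their mean over 5 libraries; red symbols are large follicles, blue symbols small follicles, and the dashed line marks 1 FPKM. SERPINE2, SERPINH1 and SERPING1 lie at 322 FPKM or more everywhere, and the colours separate clearly for SERPINF1, SERPINA5 and SERPINA6.

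SERPINF1 encodes PEDF, a secreted protein that inhibits no protease and is known for blocking the growth of blood vessels. Large follicle replicates 1, 2 and 3 had 35.8, 31.8 and 39.8 FPKM, and the small follicle replicates had 6.37 and 5.97 FPKM. The groups lay far apart, and the values within each were close together. The gene (identifier 780402) lies on the plus strand of chromosome 12 of Sscrofa11.1, from 47949004 to 47959471. Its mean rose 5.80-fold, from 6.17 ± 0.279 to 35.8 ± 4.01 FPKM, a change of 2.35 ± 0.22 in log2 with a limma adjusted p of 0.00131. The value rested on 605, 466 and 611 fragments of the large and on 89 and 88 of the small follicle libraries. Among all genes tested it was place 31 of the largest rises and place 13 by p.

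The call of SERPINF1 was kept in all 16 alternative analyses, with limma adjusted p values from 3.39e-05 to 0.0280. The lowest of these came from the replicate block. Its log2 fold change, 2.28, equals that without large follicle replicate 3, so these alternatives are not separate checks. With 1 library left out the fold ran from 5.48 to 6.13. The gene lies within the span of SMYD4, which is on the other strand, and the sources used here do not say whether counting used the strand. SMYD4 had 1.89 to 2.81 FPKM in all 5 libraries and a log2 fold change of -0.22 ± 0.27. SERPINF2, alpha-2-antiplasmin, the main plasma inhibitor of plasmin, lies 6.72 kb before SERPINF1 on the same strand. It had 1.89, 0.740 and 1.79 FPKM in large and 1.87 and 2.47 FPKM in small follicles. These groups overlapped (log2 fold change -0.39 ± 0.31, limma adjusted p = 0.766). The 4 tested genes on each side of SERPINF1, these neighbours included and up to 197 kb away, had log2 fold changes between -0.50 and 0.17. Limma called 0 of these 8.

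SERPINA6 encodes corticosteroid-binding globulin, which carries cortisol and progesterone and is known mainly as a plasma protein made by the liver. Its FPKM was 0.431, 0.276 and 0.527 for the large follicle replicates in order, against 3.65 and 3.19 for the small ones. All 3 large follicle values were below both small follicle values. In fragments these were 9, 5 and 10 against 63 and 58. The gene (identifier 396736) lies on the minus strand of chromosome 7, from 115535552 to 115554536. The mean was 8.30-fold lower in large follicles, at 0.412 ± 0.127 against 3.42 ± 0.327 FPKM, which gave a log2 fold change of -1.65 (SE 0.25) and passed at a limma adjusted p of 0.0174. With 1 library left out this fold ran from 7.13 to 9.66. SERPINA6 passed the filter only through the small follicle libraries, so a difference was built into its being tested. The call was lost in 4 alternatives: the limma adjusted p rose to 0.0937 when no filter was used, to 0.108 when large follicle replicate 1 was left out, and to 0.0602 and 0.0563 when small follicle replicates 1 and 2 were.

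SERPINA5 encodes the protein C inhibitor, a heparin-dependent inhibitor of activated protein C, thrombin and urokinase. It had 2.51, 1.51 and 1.74 FPKM in large and 4.71 and 4.51 FPKM in small follicles. The small follicle values were all higher, but the adjusted test was not passed. The means were 1.92 ± 0.522 and 4.61 ± 0.139 FPKM, giving -0.96 ± 0.29 in log2 and a limma adjusted p of 0.214 (unadjusted p = 0.00795). Across the alternatives the limma adjusted p ran from 0.118 to 0.980. SERPINA5 lies on the plus strand of chromosome 7, from 115799414 to 115810825, in the same stretch as SERPINA6. The 4 tested genes on each side of SERPINA6, SERPINA5 included and up to 807 kb away, had log2 fold changes between -2.14 and 0.32. Limma called 1 of these 8. This was LOC106504547, described as serpin A3-8, which passed the filter only through the small follicles. A shared change of the stretch was not tested.

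That stretch of 452 kb on chromosome 7 holds 5 of the 6 clade A members. The other named members there were barely detected. SERPINA1, alpha-1-antitrypsin, the main plasma inhibitor of neutrophil elastase, had 8, 2 and 2 fragments in the large and 3 and 0 in the small follicle libraries. SERPINA11 had 1 fragment in all large follicle libraries together, and 5 and 4 in the small ones. SERPINA3-2, a relative of antichymotrypsin, was at 0. The remaining clade A member, SERPINA7 on chromosome X, which encodes thyroxine-binding globulin, was also at 0.

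**Figure D2:**
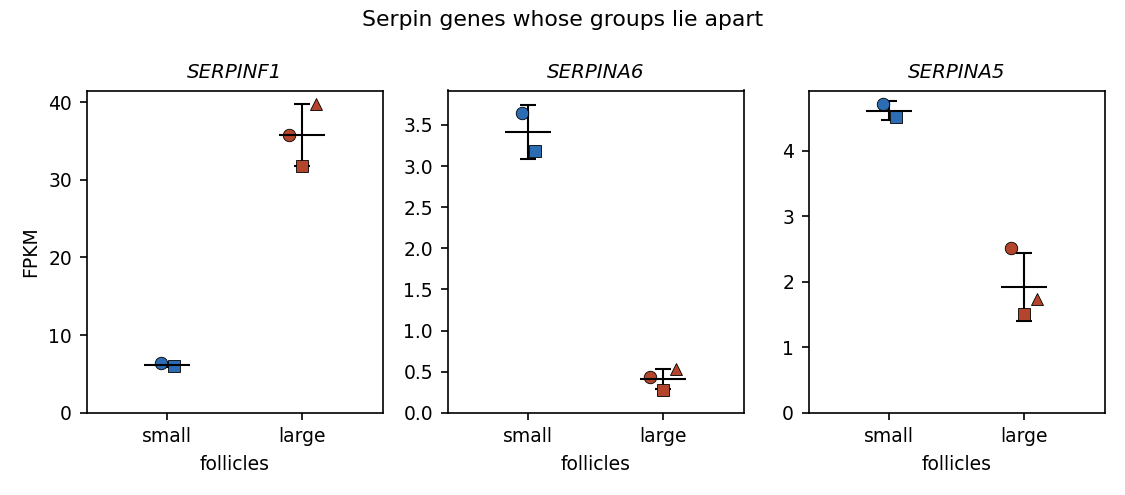
FPKM of SERPINF1, SERPINA6 and SERPINA5 in small (blue) and large (red) follicles; each symbol is a library, with circles, squares and triangles for replicates 1, 2 and 3, the long bars are group means and the whiskers 1 SD. The groups do not overlap in any of the 3 panels; limma called SERPINF1 and SERPINA6 and did not call SERPINA5.

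In clade E, SERPINE2 (chromosome 15, 125748383 to 125777788) varied widely between libraries of the same group. It had 1439, 2065 and 3611 FPKM in large and 1078 and 2098 FPKM in small follicles. Large follicle replicate 3 was the highest and small follicle replicate 1 the lowest, and the groups overlapped. The means were 2371 ± 1118 and 1588 ± 721 FPKM, with coefficients of variation of 47.1% and 45.4%. Counting error does not limit this gene, which had 19905 to 73208 fragments per library. The log2 fold change was 0.55 ± 0.45 (limma adjusted p = 0.771), with a 95% interval from -0.45 to 1.55. Leaving out small follicle replicate 1 gave 0.07, leaving out large follicle replicate 3 gave 0.20, and leaving out small follicle replicate 2 gave 1.03. SERPINE3 had 3 and 2 fragments in large follicle replicates 2 and 3, 1 in small follicle replicate 1 and 0 elsewhere.

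SERPING1 (chromosome 2, 13324160 to 13338826) had 445, 488 and 468 FPKM in large and 383 and 322 FPKM in small follicles. The large follicle values were all higher, by a small amount, and the test was not passed. The fold of means was 1.32 (log2 fold change 0.41, SE 0.22, limma adjusted p = 0.595), with a 95% interval from -0.08 to 0.90. SERPINH1 (chromosome 9, 9782939 to 9794485) had 580, 507 and 572 FPKM in large and 560 and 725 FPKM in small follicles. Those values overlapped, with small follicle replicate 2 the highest. Its log2 fold change was -0.21 ± 0.24 (limma adjusted p = 0.865), with a 95% interval from -0.74 to 0.33.

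The clade B members are serpins that act mostly inside cells. SERPINB9, which blocks granzyme B, had 18.3, 33.0 and 32.1 FPKM in large and 31.0 and 30.5 FPKM in small follicles. Large follicle replicate 1 was the lowest, and the other 4 libraries lay close together. The log2 fold change was -0.19 ± 0.28 (limma adjusted p = 0.892). It became 0.08 when large follicle replicate 1 was left out. SERPINB1, which blocks neutrophil elastase and cathepsin G, had 19.7, 22.2 and 20.7 FPKM in large and 23.8 and 19.2 FPKM in small follicles. It had the narrowest range of the tested members relative to its level, and its log2 fold change was -0.03 ± 0.22 with a 95% interval from -0.52 to 0.45. That sign turned under median-of-ratios scaling, to 0.06, and under quantile normalization, to 0.04. These 2 genes lie 30.0 kb apart on chromosome 7, between 1684212 and 1732562.

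The other 7 clade B members lie in 354 kb of chromosome 1, from 157841487 to 158195896, and 1 of them passed the filter. SERPINB11 had 2.33, 0.969 and 1.74 FPKM in large and 1.20 and 2.04 FPKM in small follicles. The groups overlapped (log2 fold change 0.02 ± 0.31, limma adjusted p = 0.994). SERPINB10, a serpin known from blood-forming cells, had 14, 10 and 24 fragments in the large and 4 and 6 in the small follicle libraries. SERPINB7 had 11, 6 and 8 against 4 and 6 fragments. SERPINB2 had 1 fragment, in large follicle replicate 2. SERPINB5, also called maspin, an epithelial member, was at 0, as were SERPINB12 and SERPINB13.

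In the remaining clades, SERPINI1, or neuroserpin, which inhibits tissue plasminogen activator and is best known from neurons, had 1.05, 0.880 and 1.42 FPKM in large and 0.923 and 0.383 FPKM in small follicles. The groups overlapped (log2 fold change 0.37 ± 0.26, limma adjusted p = 0.730). SERPINI1 passed the filter only through large follicles, and its fold of means, 1.71, was 2.91 when small follicle replicate 1 was left out and 1.21 when replicate 2 was. Its neighbour SERPINI2 was at 0. Antithrombin, SERPINC1, had 7, 1 and 5 against 2 and 0 fragments. Heparin cofactor II, SERPIND1, had 1 fragment, in large follicle replicate 2. A member at 0 could still have had a level of up to 0.0361 to 0.229 FPKM, the value of 3 fragments in these genes and libraries, counting error only.

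**Figure D3:**
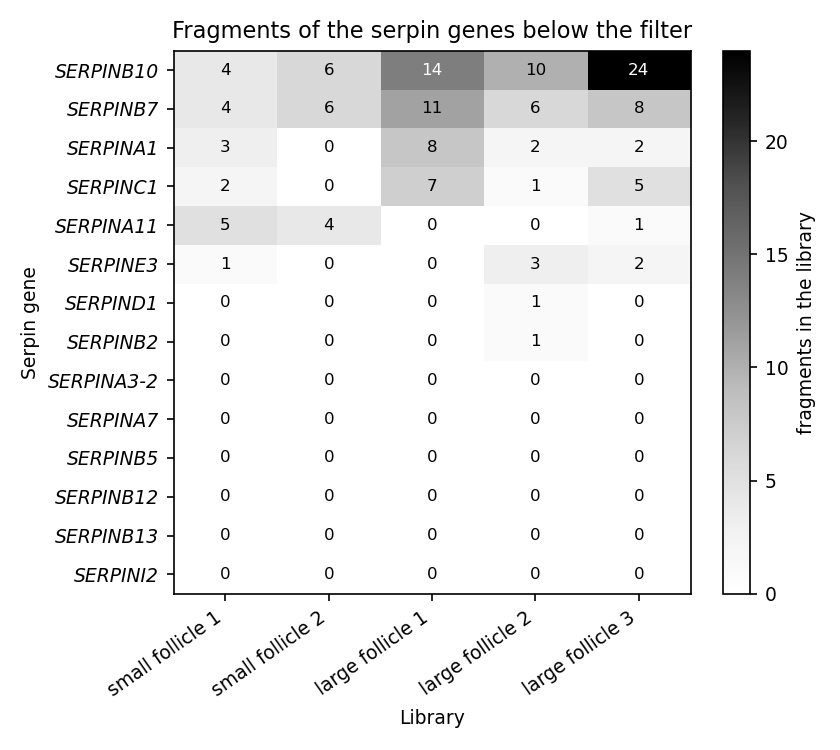
Recovered fragments in each library of the 14 serpin genes below the filter, 1 row per gene and 1 column per library, darker cells holding more fragments. SERPINB10 reaches 24 fragments in large follicle replicate 3, and the lowest 6 rows are 0 throughout.

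Taking the tested members side by side, 6 had higher and 6 had lower values in large follicles. Their median log2 fold change was -0.01, against -0.08 over all genes tested. The values did not overlap between the groups for 3 members with higher values and 2 with lower ones, where 26.1% of all genes tested did not overlap. Unadjusted p was under 0.05 for 4 members, where it was for 10.4% of all genes tested. The 95% interval of SERPINB1, SERPINB9, SERPING1 and SERPINH1 lay within 1 log2 unit on either side of 0. Those of SERPINB11 and SERPINI1 did so too, but these are low genes whose SE depends on the added 1: with 0.1 added it was 0.50 and 0.54.

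**Figure D4:**
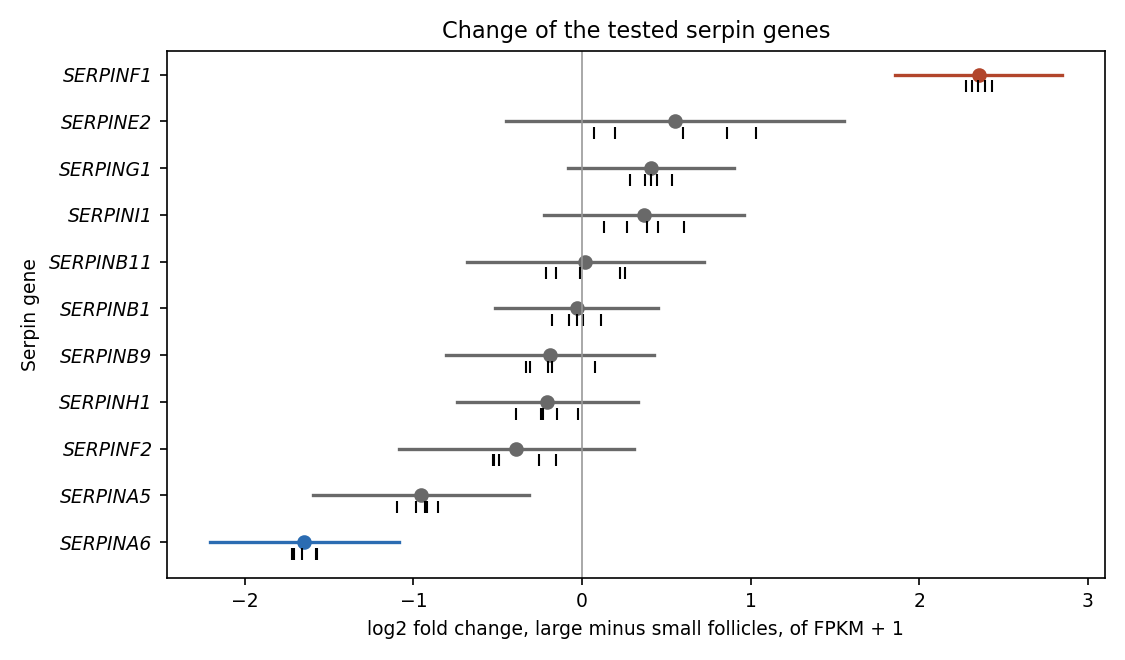
Log2 fold change of FPKM + 1, large minus small follicles, for 11 of the 12 tested serpin genes; dots are estimates, lines 95% intervals from limma, and the short black ticks the estimates with each library left out in turn. SERPINF1 (red, 2.35) and SERPINA6 (blue, -1.65) were called, and the ticks of SERPINE2 are spread from 0.07 to 1.03.

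The proteases and partners of these serpins were followed in 7 lists. Limma called 0 of their genes, and voom on the recovered fragments also called 0. Over all genes tested limma called 0.978%, and each list held 7 to 22 tested genes. A count of 0 is therefore near that share and does not show that these genes were unchanged. In the plasminogen activation list 6 of 8 tested members had higher and 2 lower values, with 0 at an unadjusted p under 0.05. The smallest p values there were those of PLGRKT, a plasminogen receptor (log2 fold change 0.51 ± 0.23), PLAUR, the urokinase receptor (0.66 ± 0.33), and S100A10 (0.42 ± 0.22). Plasminogen itself, PLG, was at most 0.0350 FPKM. PLAU and PLAT, the urokinase and tissue activators, were singled out after their values were seen. PLAU had 5.45, 5.52 and 5.55 FPKM in large and 2.03 and 5.62 FPKM in small follicles, and PLAT had 45.4, 42.9 and 48.4 against 33.1 and 52.9 FPKM. Both activators overlapped between the groups. SERPINE2 exceeded PLAT by 31.7 to 74.7 times within a library, with overlapping groups.

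Ratios of serpin to partner within a library were calculated for 7 pairs, also chosen with the values known, and are given with no test. In 2 pairs, both with SERPING1, which does not overlap on its own, the groups did not overlap. Of all genes tested 26.1% did not overlap, but that share is of single genes and gives no background for ratios. The pairs also share serpins, so they are not independent. SERPING1 over C1S was 2.98 to 3.32 in large and 1.89 to 2.33 in small follicles, and SERPING1 over C1R was 2.73 to 3.20 against 2.48 to 2.60. The ratios of SERPINH1 to COL1A1, COL3A1 and COL4A1 overlapped.

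In the thrombin and coagulation list 9 of 13 tested members had higher and 4 lower values, with 2 at an unadjusted p under 0.05. These were F2RL2, a thrombin receptor (log2 fold change -1.01 ± 0.24, limma adjusted p = 0.102), and F2, prothrombin (-0.71 ± 0.27, limma adjusted p = 0.383). F2RL2 was at 0.187 to 0.424 FPKM in large follicles and passed the filter only through the small follicle libraries, so a difference was built into its being tested. F2 had 2.09, 1.74 and 2.05 FPKM in large and 3.39 and 4.33 FPKM in small follicles. These values were lower in large follicles, as those of SERPINA5 were, but limma called neither gene. PROCR, the receptor of protein C, was next at 0.64 ± 0.29. The C1 and contact list had 3 higher and 4 lower values of 7 tested, with 1 at an unadjusted p under 0.05. MASP1, a protease of the lectin pathway, had -0.73 ± 0.26, KNG1, kininogen, 0.59 ± 0.28 and C1R 0.19 ± 0.19. MASP1 passed the filter only through the small follicles, and KNG1 only through the large ones, so neither test is free of that choice.

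The collagen folding list, the partners of SERPINH1, had 11 higher and 11 lower values of 22 tested, 0 at an unadjusted p under 0.05, and a median of 0.00. Its smallest p values were those of P3H3, a prolyl hydroxylase (0.46 ± 0.21), P4HA1, another prolyl hydroxylase (-0.42 ± 0.23), and MIA3, which helps to export collagen (-0.39 ± 0.24). The list of leukocyte and lysosomal proteases had 8 higher and 2 lower values of 10 tested, with 0 at an unadjusted p under 0.05. GZMA, among the higher ones, passed the filter only through the large follicles, so its direction is not free of that choice. CTSD, CTSS and CTSL, lysosomal cathepsins, had log2 fold changes of 0.56 ± 0.25, 0.88 ± 0.41 and 0.67 ± 0.44. Of 2 proteases picked out after their values were seen, neutrophil elastase, ELANE, was at most 0.377 FPKM and granzyme B, GZMB, at most 0.492 FPKM.

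The list of serpin receptors and binding partners had 4 higher and 9 lower values of 13 tested, with 3 at an unadjusted p under 0.05. Among these, HSPG2, the proteoglycan perlecan, was at -1.16 ± 0.30 (limma adjusted p = 0.137). PLXDC1, a reported PEDF receptor, had 5.86, 3.01 and 4.33 FPKM in large and 9.73 and 10.4 FPKM in small follicles (-1.07 ± 0.31, limma adjusted p = 0.189). Of the other genes of the list reported as PEDF receptors, looked at after their values were seen, PLXDC2 had 0.52 ± 0.36, RPSA 0.52 ± 0.33, PNPLA2 -0.04 ± 0.20 and LRP6 -0.24 ± 0.38. The groups overlapped for each of these 4. HSPG2 passed in 3 of its 16 alternatives, over which the limma adjusted p ran from 0.0126 to 0.629. It passed when large follicle replicate 2 or 3 was left out (limma adjusted p = 0.0279 and 0.0248), and had 0.269 when large follicle replicate 1 was, and 0.190 and 0.629 when small follicle replicates 1 and 2 were.

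Protease inhibitors outside the family had 11 higher and 9 lower values of 20 tested, with 6 at an unadjusted p under 0.05. ITIH4, an inter-alpha-inhibitor heavy chain, had 1.12 ± 0.23 (limma adjusted p = 0.0657). Over its 16 alternatives the limma adjusted p ran from 0.0336, when large follicle replicate 2 was left out, to 0.558 with a replicate block. ITIH4 passed in 3 of them, the others being median-of-ratios scaling and quantile normalization (limma adjusted p = 0.0340 and 0.0410). A2M, a broad protease trap, had -0.83 ± 0.25, and CST3, the cathepsin inhibitor cystatin C, had 0.76 ± 0.28, with limma adjusted p values of 0.214 and 0.342.

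**Figure D5:**
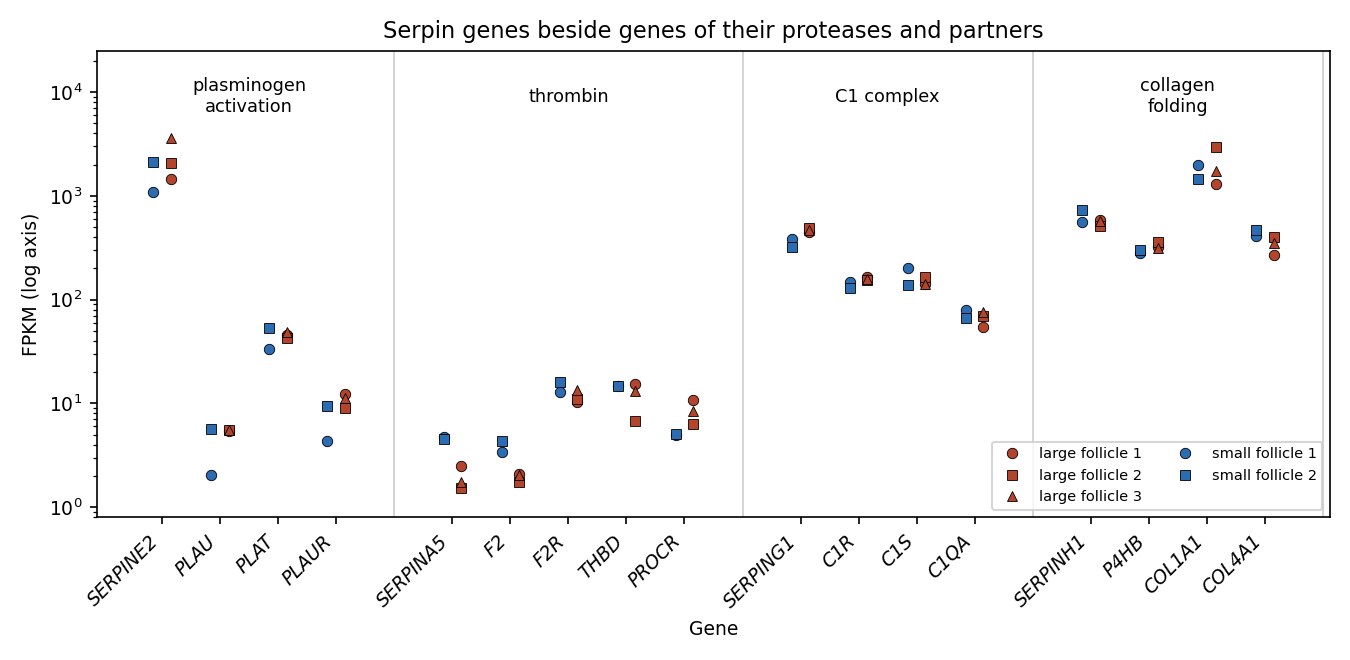
FPKM on a log axis of serpin genes and genes of their proteases and partners in each library, the partners shown being chosen after their values were seen; red symbols are large and blue symbols small follicles. SERPINE2 lies above PLAU and PLAT in all 5 libraries. SERPINA5 and F2 both have their 3 large follicle values below the small ones, but limma called neither.

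Marker genes of several cell types also differed between the groups in their summed level, but a sum is set mostly by its most abundant genes. In the erythroid list HBB alone had 995 to 1663 FPKM in large and 231 to 697 FPKM in small follicles. In the smooth muscle list ACTA2 and TAGLN were the most abundant, while MYH11 and MYLK had lower values in large follicles (log2 fold changes -0.77 and -0.54). A higher sum is therefore not a shift of the whole list. The 14 myeloid genes summed to 220 to 347 FPKM in large and 98.6 to 106 FPKM in small follicles, with higher values for 12 of 12 tested, of which limma called 1, the lysozyme gene LYZ. Among the 12, S100A8, S100A9 and S100A12 passed the filter only through the large follicles, so a difference was built into their being tested. Endothelial genes summed to 361 to 447 against 301 to 327 FPKM, with 8 of 10 tested higher. Smooth muscle genes summed to 3750 to 4533 against 3150 to 3183 FPKM, with 4 of 6 higher, and theca genes had higher values for 6 of 9, of which limma called 1, the steroid hydroxylase CYP17A1. Granulosa genes had lower values for 7 of 11 tested, of which limma called 1, the activin and inhibin subunit INHBB. Erythroid genes summed to 1006 to 1681 against 235 to 703 FPKM, with 4 of 4 tested higher, and oocyte genes to 46.7 to 62.8 against 27.0 to 38.9 FPKM, with 3 of 5 higher. The erythroid gene AHSP passed the filter only through the large follicles. The oocyte gene ZP2, which had lower values in large follicles, passed only through the small ones. Neither direction is free of that choice. No gene of these 7 lists that the files hold was at 0 in all libraries. The sums of the stroma and fibroblast list overlapped, at 3958 to 5885 against 4195 to 4374 FPKM. The part of these cell types in the values of SERPINF1, SERPINA6 and the other members was not tested.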

How the data were processed

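Per the labels' protocols, follicle RNA was extracted with TRIzol, libraries came from a stranded mRNA kit, and sequencing was paired-end. The authors deposited FPKM values per gene, per the file headers. The build was Sscrofa11.1, and featureCounts 1.5.0-p3, HISAT2 2.0.5, StringTie 1.3.3, Trimmomatic 0.38 and FastQC 0.11.4 were among the tools, per the submitters' processing notes, which state no role for each. Strand setting and treatment of shared fragments: not given in the sources used here. Groups and replicate numbers came from the sample titles.

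All 26 members had the coordinates that RefSeq's gene table gives for this assembly. Fragments were recovered as whole multiples of the smallest FPKM step, within 0.001 or, at high counts, a limit that grew with the count. Of the 23353 genes above 0, 49.5% gave whole fragments with the listed length, and the others with a shorter length found by search. Of the members, 14 did so with the listed and 6 with a shorter length.

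Genes with FPKM of at least 1 in 2 or more libraries (13087) were tested with limma 3.58.1 in R 4.3.3, two-sided, on log2(FPKM + 1), with follicle size as the single term and the variance following a trend in the mean, adjusted over all genes tested. The fit was also run on simulated counts with the means, totals and spread of these libraries. Those counts held no other differences between libraries, so no result here rests on that run. The members and gene lists were chosen with earlier results of these data known. Every member is named, and from each list the called genes or else the 3 with the smallest p, except 1 member and 1 listed gene that entered the fit and the counts and are not reported here. Alternatives covered pseudocounts of 0.1 and 5, filters, scaling, a replicate block, variance without a trend, weights per library, only protein-coding genes, voom on recovered fragments, and each library left out.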

Additional observations from a re-analysis of the deposited data

How the results depend on the processing

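SERPINF1 was called higher in all 16 alternatives and SERPINA6 lower in 11 of the 15 that included it. Of the serpins 2 were called, but 1 when no filter was used, 1 at a mean FPKM of at least 5, where SERPINA6 was not tested, and 1 to 2 with a library left out. Over all genes 128 were called, against 32 when no filter was used, 41 at a mean FPKM of at least 5, 202 under median-of-ratios scaling, 201 under quantile normalization, 82 among protein-coding genes and 70 with voom. With a library left out the count ran from 29, without large follicle replicate 1, to 268, without large follicle replicate 2, and was 222 without large follicle replicate 3, and 78 and 60 without small follicle replicates 1 and 2. Some log2 fold changes turned in sign. SERPINB1 had 0.059 under median-of-ratios scaling and 0.037 under quantile normalization, and ran from -0.18 to 0.11 with a library left out. In the same way SERPINB11 ran from -0.22 to 0.25, SERPINB9 from -0.33 to 0.078, PLAU from -0.025 to 1.10, PLAT from -0.21 to 0.45, C1S from -0.45 to 0.10 and LOC100156248 from -0.065 to 0.46. Apart from SERPINB1, SERPINB9 and SERPINB11, each turned only without small follicle replicate 1. The cause was not tested, and none of these 7 genes was called in any alternative.

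With a replicate block, 157 genes and 2 serpins were called, and SERPINB11 had -0.014. The block sets large follicle replicate 3 apart, so its fold changes equal those without that library. Deviations from the group means correlated at -0.00148 for replicates numbered 1 and -0.45 for those numbered 2. With 2 small follicle libraries, the deviations of one mirror those of the other. These correlations therefore cannot decide whether same-numbered samples share an animal, which the labels do not say. HSPG2 passed in the block fit (limma adjusted p = 0.0126). It also passed without large follicle replicate 3, and these passes share a fold change and are not separate checks. Depth limits the members with a few fragments.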

Other observations

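The files hold 14 further rows that are described as serpins or close relatives but carry placeholder or other names, and they were looked at after the members' values were seen. Of these, 4 passed the filter. LOC106504547, described as serpin A3-8 (chromosome 7, 115830305 to 115836430), lies 19.5 kb beyond SERPINA5. It had 0.789, 0.210 and 0.401 FPKM in large and 5.80 and 5.01 FPKM in small follicles, from 13, 3 and 6 fragments against 79 and 72. The small follicle values were all higher. Limma called it lower in large follicles (log2 fold change -2.14, SE 0.28, adjusted p = 0.00872). Like SERPINA6 it passed the filter only through the small follicles, and the call was lost when no filter was used (limma adjusted p = 0.0902) and when large follicle replicate 1 was left out (limma adjusted p = 0.0545). LOC100153899, also described as serpin A3-8, had 0.664, 0.255 and 0.426 FPKM in large and 1.47 and 1.33 FPKM in small follicles (log2 fold change -0.74 ± 0.24, limma adjusted p = 0.281). It too passed the filter only through the small follicles. Several copies of this kind lie side by side, so the copy their fragments came from is uncertain.

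LOC106504299, described as serpin B6 but listed as noncoding, had 63.1, 50.9 and 42.6 FPKM in large and 45.3 and 36.3 FPKM in small follicles, a level above that of SERPINB1 and SERPINB9 in all 5 libraries. The groups overlapped (log2 fold change 0.34 ± 0.23, limma adjusted p = 0.713). LOC100156248, described as serpin B8, had 1.33 to 3.05 FPKM (log2 fold change 0.20 ± 0.32, limma adjusted p = 0.904).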
